A study of Mus musculus with 10 samples.

Results

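The 10 genes described here act on the adipocyte lipid droplet and were followed in primary adipocytes with and without deletion of Fam20c, the gene for a kinase of the secretory pathway. They are the droplet coat genes Plin2, Plin3, Plin4 and Plin5, the droplet fusion gene Cidec, the droplet assembly genes Bscl2, Fitm1 and Fitm2, and Hilpda and Pnpla3, whose products act on the droplet's lipases or lipids. They were picked by name in the gene column of the count table, with earlier results of these data known, from 56748 genes in all, and 9 of them had enough counts to be among the 14270 genes tested.

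RNA-seq covered 5 control cultures (Fam20c-flox) and 5 Ad-Fam20c-KO cultures (Fam20c-flox/Adipoq-Cre), each a library of its own. Stromal vascular cells came from the inguinal fat of male mice 6 to 8 weeks old, on a C57BL/6J background, and were taken through adipogenic differentiation for 6 to 8 days. Both groups carried the floxed alleles and received the same differentiation treatment, and the control group had no Cre. The Adipoq promoter drives Cre in cells that have begun to make adiponectin, so cells of the culture that never became adipocytes keep Fam20c.

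A lipid droplet is a core of triglyceride and sterol ester under a single layer of phospholipid. It is born in the membrane of the endoplasmic reticulum, where seipin (Bscl2) and the FIT proteins help neutral lipid gather into a lens and bud into the cytosol. In the white fat cell the droplet then grows, partly by CIDE proteins that pass lipid from small to large droplets, and perilipins on its surface control the access of lipases.

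Total counts ranged from 18949106 to 26237825 per library, and libraries of a group differed by more than sampling noise. Fam20c itself fell in CPM from 10.2 ± 1.29 to 7.30 ± 0.449 (counts scaled to a common library size, mean ± SD, n = 5), or by 0.49 on the log2 scale (adjusted p = 0.0137, edgeR, quasi-likelihood test, Benjamini-Hochberg adjustment). The fall was partial, at -28.9% (95% interval -38.2% to -18.2%), so most Fam20c counts remained in KO cultures. The cultures carried the markers of fat cells, with Fabp4 between 20363 and 23548 CPM and Adipoq between 1646 and 1873 CPM, and the 15 adipocyte markers summed to 43641 to 44654 CPM in control and 44363 to 46876 CPM in KO libraries. Control 4 and KO 1 stood apart from the other libraries at the same end of the leading principal component, which held 23.5% of the variance, and values without both are given where they matter. Markers of endothelial cells were lower in KO cultures, with 12 of 15 called lower and a summed level of 181.5 to 229.0 CPM in control and 77.3 to 117.8 CPM in KO libraries. Of the adipose progenitor markers, 5 of 14 were called lower (Cd34, Col1a1, Col3a1, Lum and Pdgfra), with sums of 5173 to 6676 and 4332 to 5131 CPM. At an unadjusted p under 0.05, 8 of these 14 were lower. Among all genes tested, 1.86% were called lower and 7.46% were lower at an unadjusted p under 0.05.

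Only 1 lipid droplet gene was called. Plin5 was 21.6% higher in KO cultures, and the other 8 tested genes did not pass the test. Across all genes tested, 2.17% were called, 0.308% higher and 1.86% lower in KO, and of the 9 lipid droplet genes 1 was called higher and 0 lower at an adjusted p of at most 0.05. Of the 9, 7 had a log2 fold change above 0 and 2 below it, with a median of 0.03, while 49.7% of all genes tested lay above 0 and their median was -0.00085. By an unadjusted p under 0.05, 1 of the 9 passed, against 11.9% of all genes tested. The plot of each gene by library and the plot of the fold changes show the same picture.

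**Figure D1:**
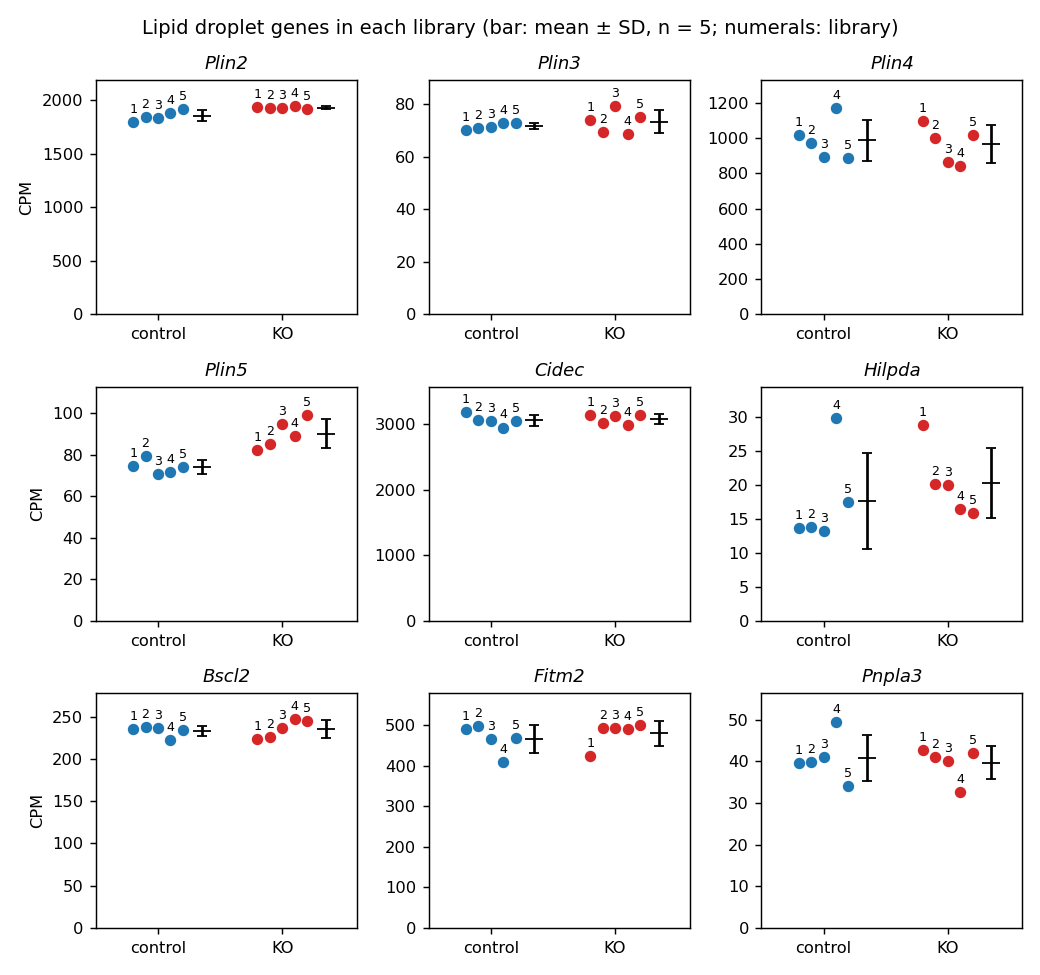
CPM (vertical axis, from 0) of the 9 tested lipid droplet genes in the 5 control and 5 KO libraries, each point a library with its number, and the bar the mean ± SD. Only in Plin5 do the groups not overlap, and control 4 and KO 1 are the highest libraries for Hilpda and the lowest for Fitm2.

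Plin5 codes for the perilipin of oxidative tissues, which coats droplets, tethers them to mitochondria and holds back adipose triglyceride lipase. It lies on the minus strand of chromosome 17 (chr17:56111601-56117596, GRCm38) and its exons overlap no other annotated gene. The control libraries 1 to 5 had 74.3, 79.2, 70.7, 71.4 and 73.8 CPM. The KO libraries 1 to 5 had 82.0, 85.2, 94.4, 88.7 and 99.1 CPM. The lowest KO library, KO 1, lay above the highest control library, control 2, an arrangement without overlap that 3.97% of all genes tested showed, 1.31% with KO higher and 2.66% with KO lower. Mean Plin5 levels were 73.9 ± 3.36 (control) against 89.9 ± 6.93 (KO) CPM (mean ± SD, n = 5 each). Its log2 fold change was 0.28 (standard error 0.055, 95% interval 0.16 to 0.40, adjusted p = 0.0170 by edgeR's quasi-likelihood test, Benjamini-Hochberg adjustment). A 2-sided exact permutation test over all 252 assignments of the libraries gave an unadjusted p of 0.00794, the smallest that 5 against 5 libraries allow.

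The size of the Plin5 change held more firmly than its call. When single libraries were left out, its log2 fold change ran from 0.25 to 0.32, and the gene was called in 8 of these 10 fits. The call was lost without control 3 (0.27, adjusted p = 0.0536 in edgeR's quasi-likelihood test) and without control 5 (0.28, adjusted p = 0.0504). Without control 4 and KO 1 together the value was 0.30 (adjusted p = 0.0127). With the mean level of the adipocyte markers as a term of the fit it was 0.29 (adjusted p = 0.0680). In bulk cultures, fewer cells of a type and less RNA per cell cannot be told apart. The summed endothelial and progenitor markers moved with genotype in these same libraries, and their part in the Plin5 difference was not tested. After the group means were subtracted, the correlation of Plin5 over the 10 libraries was -0.59 with the mean of the endothelial markers and -0.58 with that of the progenitor markers, as a description. Such values were not particular to these 2 lists. They were -0.75 for other droplet surface genes, -0.60 for pericyte and smooth muscle markers and 0.72 for triglyceride lipases and their regulators, lists described below.

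Plin5 is also made in skeletal and cardiac muscle, and the cultures were checked for muscle transcripts. Of 15 skeletal muscle markers 5 had enough counts to be tested and 0 were called by edgeR, DESeq2 or limma voom (0 at an unadjusted p under 0.05), the 15 markers' sum was 15.5 to 25.4 CPM in control and 13.8 to 22.7 CPM in KO libraries, and Pax7, the marker of muscle stem cells, was at 0 in every library.

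Within 200 kb of Plin5, 19 other genes were tested, and 0 were called by edgeR's quasi-likelihood test. Of all genes tested 2.17% were called, a share at which few or none of 19 would be. At an unadjusted p under 0.05, 5 passed, all but Lrg1 lower in KO, against 11.9% of all genes tested. The log2 fold changes of the 19 genes ran from -0.67 to 0.16. Plin4, whose end is 1.80 kb from Plin5, was at -0.03, and Plin3, 159.9 kb away, at 0.03. On the other side Lrg1, 2.08 kb away, was at 0.16 (adjusted p = 0.361 in edgeR's quasi-likelihood test).

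Promoter sequence was read from RefSeq (GRCm38.p6), 250 bases before to 50 after the most upstream start of each gene, and all 10 genes were found among 27025 promoters. Letters were searched on both strands. AGGTCA, the core of nuclear receptor sites, was present in the windows of Plin2 and Plin5 and in 16.0% of all promoters, and the paired form AGGNCANAGGNCA was present in 0 of the 10 and in 0.385% of all. GCGTG, the core of dioxin receptor sites that also appears in hypoxia response elements, was present in Bscl2, Cidec, Fitm2, Hilpda, Plin2, Plin5 and Pnpla3 and in 32.5% of all. ACGTG, the other core of hypoxia response elements, was found in Plin2 alone, inside a CACGTG that lies outside the stretch shown, and in 19.6% of all promoters, CACGTG itself in 7.24%, and TATAAA in 0 of the 10 and in 14.2% of all. The stretches of Plin5 and Plin2 upstream of their annotated first exons are shown, since they are the coat gene that rose and the coat gene that shares its AGGTCA without passing the test. Both lie on the minus strand (Plin5 chr17:56117597-56117798, Plin2 chr4:86670061-86670309) and run 5′ to 3′ toward the gene, and capitals mark AGGTCA or GCGTG on either strand. A match of letters is a description and no binding site.
Plin5: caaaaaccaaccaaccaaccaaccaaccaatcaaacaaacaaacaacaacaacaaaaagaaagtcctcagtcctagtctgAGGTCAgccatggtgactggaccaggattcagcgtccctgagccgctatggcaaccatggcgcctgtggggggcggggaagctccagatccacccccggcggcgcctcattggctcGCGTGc
Plin2: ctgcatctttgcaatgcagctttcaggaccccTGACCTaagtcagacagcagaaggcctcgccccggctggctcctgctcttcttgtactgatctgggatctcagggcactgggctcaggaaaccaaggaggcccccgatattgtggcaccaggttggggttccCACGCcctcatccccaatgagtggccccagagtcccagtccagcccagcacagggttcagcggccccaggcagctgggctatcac

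**Figure D2:**
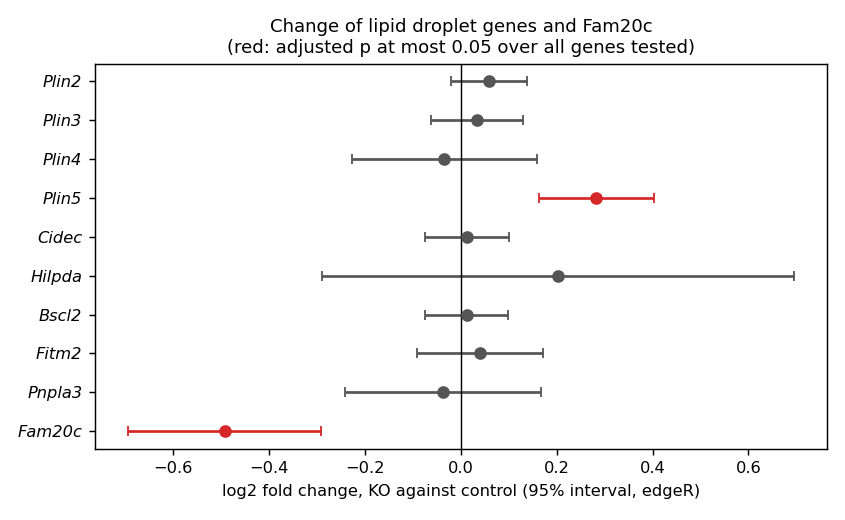
Log2 fold change of KO against control (horizontal axis) with its 95% interval from edgeR for the 9 tested lipid droplet genes and Fam20c, red where the adjusted p is at most 0.05. Only Plin5, at 0.28, and Fam20c, at -0.49, are red, and the interval of Hilpda is the widest of the lipid droplet genes.

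Plin2 codes for the coat protein found on droplets of nearly all cells, where it is stable only while bound to lipid. Control libraries 1 to 5 held 1794, 1844, 1837, 1881 and 1923 CPM of Plin2. In KO libraries 1 to 5 it stood at 1939.6, 1925, 1925, 1949 and 1922 CPM. KO 1 to KO 4 lay above every control library by a small margin, and KO 5 fell just under control 5. With means of 1856 ± 48.7 and 1932 ± 11.7 CPM (SD, n = 5), the log2 fold change was 0.06, with a 95% interval of -0.02 to 0.14, and it did not pass edgeR's quasi-likelihood test (adjusted p = 0.603). A 2-sided exact permutation test of its log2 CPM gave an unadjusted p of 0.0159. The spread between libraries, as a coefficient of variation, was 2.62% in control and 0.606% in KO cultures.

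Plin4 covers nascent droplets of white adipocytes through a long repeat of amphipathic helices. Its levels in control libraries 1 to 5 were 1018, 975, 894, 1172 and 886 CPM. KO libraries 1 to 5 gave 1099, 1003, 867, 843 and 1017 CPM. The groups overlapped over most of their range, with control 4 the highest library and KO 4 the lowest. Plin4 averaged 989 ± 117 (control) against 966 ± 108 (KO) CPM (mean ± SD, n = 5 each), and its log2 fold change was -0.03 with a 95% interval of -0.23 to 0.16, and it turned to 0.04 without control 4, 0.01 without KO 3 and 0.01 without KO 4. One of its exons overlaps Hdgfl2 on the opposite strand, and the strand setting of the counting is not given in the sources used here.

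Plin3 makes a perilipin that moves between cytosol and small droplets. Its control libraries 1 to 5 had 70.3, 70.8, 71.4, 72.8 and 73.0 CPM, and its KO libraries 73.9, 69.4, 79.2, 68.8 and 75.3 CPM. The KO libraries lay on both sides of the narrow control range. Plin3 gave a log2 fold change of 0.03 with a 95% interval of -0.06 to 0.13.

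Plin1, which is not among the 10 genes, is the reference coat gene of the mature fat cell and the main brake on its lipases. It averaged 1139 ± 43.3 (control) against 1194 ± 50.1 (KO) CPM (mean ± SD, n = 5 each), and its log2 fold change was 0.07 (adjusted p = 0.608 in edgeR's quasi-likelihood test). Within a library, Plin1 relative to Plin2, per length, stood at a log2 ratio of -1.11 in control and -1.10 in KO cultures. Plin5 relative to Plin2, a pair chosen after the values were seen, went from a log2 ratio of -3.90 ± 0.079 to -3.68 ± 0.115 (SD, n = 5), and the groups overlapped, since KO 1 at -3.81 lay below control 2 at -3.79.

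Cidec (Fsp27) makes the protein at contact sites between droplets that drives their fusion into the single large droplet of white fat. Control libraries 1 to 5 had 3179.6, 3062, 3043, 2949.6 and 3052 CPM of Cidec, and KO libraries 1 to 5 had 3147, 3014, 3125, 2995 and 3144 CPM. The groups overlapped almost fully, and the highest and the lowest library were both control libraries. Cidec gave a log2 fold change of 0.01, and its 95% interval of -0.07 to 0.10 spans changes from 5.00% lower to 7.19% higher. The log2 ratio of Cidec to Plin2 per length was 1.64 ± 0.070 in control and 1.59 ± 0.039 in KO cultures (SD, n = 5), which overlapped.

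Among the assembly genes, Bscl2 codes for seipin, the ring-shaped protein at the neck between endoplasmic reticulum and droplet. Its control libraries 1 to 5 had 235, 238, 237, 223 and 235 CPM, and its KO libraries 224, 226, 236, 247 and 245 CPM. Control 4 was the lowest library, and KO 4 and KO 5 were the only ones above every control library. Bscl2 gave a log2 fold change of 0.01 with a 95% interval of -0.07 to 0.10. Its exons overlap AC129217.1 on the same strand and Gng3 on the opposite strand, so fragments may be shared with them.

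Fitm2 makes the FIT protein of fat cells, a membrane enzyme needed for droplets to bud toward the cytosol. The control libraries 1 to 5 of Fitm2 had 491, 497, 467, 409 and 469 CPM, and the KO libraries 424, 494, 492, 490.2 and 499.9 CPM. Control 4 and KO 1 were the low libraries, and the other 8 lay between 467 and 499.9 CPM. Fitm2 gave a log2 fold change of 0.04 with a 95% interval of -0.09 to 0.17, which was -0.00046 without control 4, 0.09 without KO 1 and 0.04 without both. It overlaps 2310001K24Rik on the opposite strand.

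Fitm1, the FIT gene of skeletal muscle and heart, was hardly detected. It had 0 counts in all 5 control libraries and in KO 2, KO 4 and KO 5, and 1 count in each of KO 1 and KO 3. A count of 0 allows up to 3 counts, which is 0.114 to 0.158 CPM at these depths and covers counting error only. It was not tested, and no fold is given.

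Hilpda codes for a small protein, strongly induced by low oxygen and by fatty acids, that binds and inhibits adipose triglyceride lipase. Its control libraries 1 to 5 had 13.7, 13.9, 13.3, 29.9 and 17.5 CPM. Its KO libraries 1 to 5 had 28.9, 20.2, 20.03, 16.4 and 16.0 CPM. Control 4 and KO 1 were far above the rest, and the other libraries overlapped between groups. Hilpda had the largest spread of the 9 genes, with coefficients of variation of 39.9% in control and 25.5% in KO cultures, and its log2 fold change of 0.20 had a 95% interval of -0.29 to 0.70 (adjusted p = 0.829 in edgeR's quasi-likelihood test). The value moved with each of these libraries. It was 0.48 without control 4 (adjusted p = 0.149), 0.05 without KO 1 (adjusted p = 0.967) and 0.32 without both (adjusted p = 0.160).

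The same pair of libraries stood out in other hypoxia-induced genes. The mean of 21 such genes in log2 CPM was 7.27, 7.21, 7.30, 8.06 and 7.41 for control 1 to 5. For KO 1 to 5 this mean was 8.09, 7.61, 7.46, 7.42 and 7.54 log2 CPM. Slc2a1, the glucose transporter of basal uptake, stood at 165.6 CPM in control 4 and at 147.7 CPM in KO 1, and 56.6 to 86.2 CPM in the other 8. Of the 21 genes, 20 had a log2 fold change above 0, with a median of 0.15, and 0 were called in edgeR's quasi-likelihood test (1 at an unadjusted p under 0.05, and 1 called by limma voom). Without control 4 and KO 1, 5 of them were called higher in KO, namely Bnip3 (0.34), Egln3 (0.52), Ero1a (0.31), Mxi1 (0.39) and Ndrg1 (0.36, all log2 fold changes), while Hilpda was not. In that fit 145 of 14340 genes were called higher, against 44 of 14270 with all libraries. Control 4 and KO 1 are the libraries highest for the mean of these same genes, so the calls without them are a description only. Oxygen was not measured, and the part of these libraries in the values of Hilpda and Fitm2 was not tested beyond leaving them out.

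**Figure D3:**
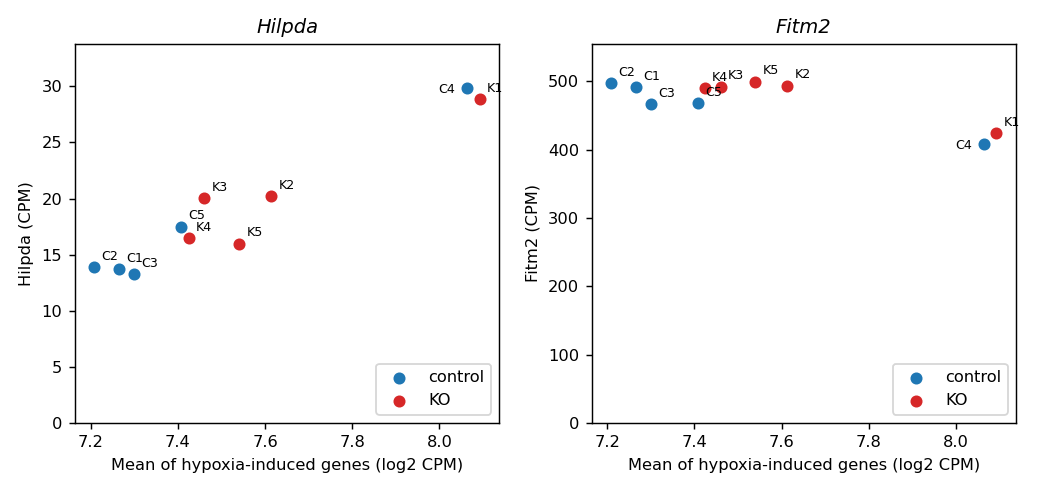
Levels of Hilpda and Fitm2 (CPM, vertical axes from 0) against the mean of the 21 hypoxia-induced genes (log2 CPM, horizontal axis), each point a control (C) or KO (K) library. C4 and K1, at 8.06 and 8.09, are highest for Hilpda and lowest for Fitm2, and the other 8 libraries lie between 7.21 and 7.61.

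Pnpla3 codes for a droplet protein of the patatin family, a relative of adipose triglyceride lipase that rises with feeding and lipogenesis. Control libraries 1 to 5 had 39.5, 39.8, 41.0, 49.4 and 33.9 CPM of Pnpla3, and KO libraries 42.8, 41.0, 40.0, 32.7 and 41.9 CPM. Apart from control 4 at the top and control 5 and KO 4 at the bottom, the libraries of both groups lay between 39.5 and 42.8 CPM. Pnpla3 gave a log2 fold change of -0.04 with a 95% interval of -0.24 to 0.17, and its sign turned to 0.04 without control 4 and to 0.03 without KO 4. Its exons overlap Gm49513 on the same strand.

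Levels of different genes can be set side by side only per length, here as CPM per kilobase of all annotated exons. In control cultures Cidec led with 1647, followed by Plin2 with 528, Plin4 with 171, Fitm2 with 118, Bscl2 with 39.6, Plin5 with 35.4, Pnpla3 with 26.3, Plin3 with 18.9 and Hilpda with 16.0 CPM per kilobase. Plin1 had 245.0 CPM per kilobase. The ranges of neighbours in this order did not overlap except for Bscl2 with Plin5 and Plin3 with Hilpda. In KO cultures Plin5, at 43.1 CPM per kilobase, stood above Bscl2 at 39.9, and the other places were the same. That exchange depends on the length chosen. Per kilobase of the longest transcript, Plin2 stood at 983 and Bscl2 at 66.8 CPM in control cultures, and in KO cultures Bscl2, at 67.4, stayed above Plin5, at 45.3, while Hilpda, at 20.7, stood above Plin3, at 20.1.

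**Figure D4:**
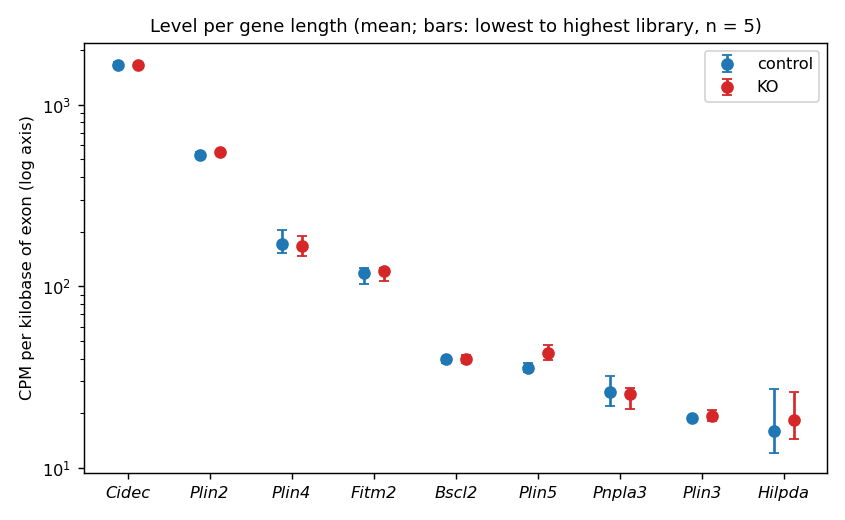
Level of each tested lipid droplet gene in CPM per kilobase of exon (vertical log axis), as the mean of 5 control (blue) or 5 KO (red) libraries with bars from the lowest to the highest library. Cidec is at 1647 and the means of Plin3 and Hilpda are 18.9 and 16.0 in control cultures, and Plin5 is the gene whose bars do not overlap between the groups.

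Between cultures of one genotype the lipid droplet genes did not vary as a single group. After the group means were subtracted, Pearson's r of log2 CPM over the 10 libraries, which share depth and culture, was 0.82 for Plin4 with Pnpla3, 0.71 for Bscl2 with Fitm2, -0.83 for Bscl2 with Hilpda and -0.91 for Fitm2 with Hilpda. Without control 4 and KO 1 (8 libraries) these became 0.66, 0.07, -0.69 and -0.33. Pearson's r was also taken with 9294 other genes whose mean log2 CPM was 3 or more, and the 2 highest are given for each gene. Over 10 libraries, a choice of the highest from so many gives high values by itself, and none was tested. Those closest to Plin5 were Srebf1 (r = 0.96), the lipogenic transcription factor gene, and Mpnd (r = 0.94), which lies 94.8 kb from Plin5. Both had a log2 fold change of 0.00 between genotypes. The closest to Hilpda were Sdc4 (0.98) and Pygl (0.97), which became 0.88 and 0.87 in the 8 libraries. Closest to Fitm2 were Hyou1 and Mlec (both 0.98, and 0.74 and 0.72 in the 8 libraries). The genes closest to Plin4 were Ptprs (0.99) and Rbm33 (0.97), and to Pnpla3 Mapk8ip3 and Gm49759 (both 0.96). For Bscl2 they were Amacr (0.98) and Pigq (0.96), for Cidec Pex5 (0.95) and Mtfmt (0.91), for Plin2 Pmm1 (0.89) and Acyp1 (0.88), and for Plin3 Stoml1 and Nat9 (both 0.94).

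The rest of the droplet pathway was described by lists of genes. Of 25 tested other genes of the droplet surface, 0 were called in either direction by edgeR's quasi-likelihood test (1 at an unadjusted p under 0.05), 13 lay above 0 and the median log2 fold change was 0.01. The gene at an unadjusted p under 0.05 was Cidea, the CIDE relative of Cidec in brown and beige fat, named here after its values were seen. The control libraries 1 to 5 held 47.0, 54.1, 51.5, 87.2 and 60.7 CPM of Cidea, the KO libraries 105, 83.8, 81.7, 83.6 and 97.6 CPM, and control 4 was the control library that overlapped the KO range. Its log2 fold change was 0.59 with an adjusted p of 0.0586 in edgeR's quasi-likelihood test, and it was called by DESeq2 (adjusted p = 0.00274), by limma voom (adjusted p = 0.00270), with no filter on low counts (adjusted p = 0.00481) and without control 4 and KO 1 (0.70, adjusted p = 0.000525). Cidea was not called with DESeq2 size factors in edgeR, with a stricter filter or under the replicate block. With single libraries left out, it was called only without control 4.

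Of 31 tested genes of droplet assembly at the endoplasmic reticulum and triglyceride synthesis, 0 were called (1 lower at an unadjusted p under 0.05), 18 lay above 0 and the median was 0.01. Of 13 tested triglyceride lipases and their regulators, 0 were called (4 higher at an unadjusted p under 0.05, against 4.43% of all genes tested), 9 lay above 0 and the median was 0.09. DESeq2 called 1 gene of each of these lists, Lpin3 lower and Lipe higher. Among them the lipase that PLIN5 and HILPDA bind, Pnpla2, averaged 2618 ± 149 (control) against 2802 ± 163 (KO) CPM (mean ± SD, n = 5 each), and its log2 fold change was 0.10 (adjusted p = 0.539 in edgeR's quasi-likelihood test).

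Of 17 fatty acid oxidation genes, 1 was called higher and 0 lower, 15 lay above 0 and the median was 0.07. At an unadjusted p under 0.05, 3 were higher and 1 lower, against 4.43% and 7.46% of all genes tested. The groups did not overlap in 3 of the 17, against 3.97% of all genes tested. The called gene was Pdk4, the kinase that shuts pyruvate dehydrogenase during fatty acid use, which rose in CPM from 376.5 ± 28.3 to 457 ± 14.8 (mean ± SD, n = 5 each), or by 0.28 on the log2 scale (adjusted p = 0.0117, edgeR's quasi-likelihood test). Of 12 tested lipogenic genes, Me1, the cytosolic malic enzyme, was called lower (from 605 ± 48.2 to 502 ± 34.7 CPM, log2 fold change -0.27, adjusted p = 0.0420), 0 were called higher and the median was 0.01. At an unadjusted p under 0.05, 2 of the 12 were lower and 1 higher. The call of Me1 was lost in 8 of 10 fits that each left out a library, among them those without control 1, 3, 4 or 5 and without KO 2, 3, 4 or 5.

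Of 11 beige adipocyte markers, 1 was called higher, Ucp1, the uncoupling protein of thermogenic mitochondria, which rose in CPM from 15.9 ± 5.62 to 29.1 ± 3.96 (mean ± SD, n = 5 each), or by 0.87 on the log2 scale (adjusted p = 0.0284, edgeR's quasi-likelihood test). Cidea, described above, is also on this list. At an unadjusted p under 0.05, 4 of the 11 markers were higher, against 4.43% of all genes tested. Of the 11 markers, 8 lay above 0, and the median was 0.13. The number of these markers called was 4 without control 4 and 0 without control 1, 2, 3 or 5 or KO 2, 4 or 5. Of the 15 adipocyte markers 0 were called, with a median of 0.05. At an unadjusted p under 0.05, 6 passed and 5 of them were higher, against 11.9% and 4.43% of all genes tested. Of 14 macrophage markers 0 were called (0 at an unadjusted p under 0.05), with a median of -0.02 and sums of 1530.0 to 2344 CPM in control and 1356 to 2232 CPM in KO libraries. Of 8 tested pericyte and smooth muscle markers 0 were called, but all 8 lay below 0. At an unadjusted p under 0.05, 5 of the 8 were lower, against 7.46% of all genes tested. Their median was -0.38, with sums of 183.3 to 241.0 CPM in control and 146.7 to 199.2 CPM in KO libraries. DESeq2 and limma voom also called 0 of the macrophage and of the pericyte and smooth muscle markers. Of the adipocyte markers DESeq2 called 2 higher (Fabp4 and Lipe) and limma voom 1 (Lipe). Lipe is also on the list of lipases, so its calls on the 2 lists are the same call.

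**Figure D5:**
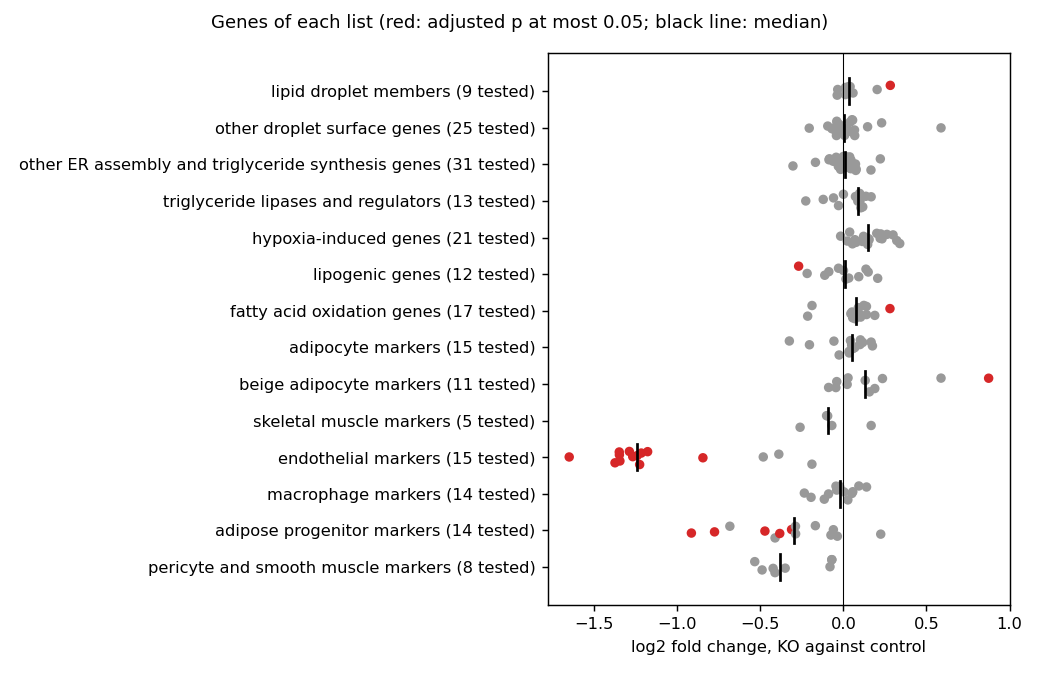
Log2 fold change of KO against control (horizontal axis) for each tested gene of 14 lists, red where the adjusted p is at most 0.05, with a black line at each list's median. The medians of the droplet, lipogenic and oxidation lists lie between 0.01 and 0.09, that of the hypoxia-induced genes at 0.15 and that of the endothelial markers at -1.24.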

How the data were processed

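Libraries of inguinal stromal vascular cells differentiated in culture, 5 per genotype, were prepared from total RNA with a SMARTer kit. The authors used STAR to map paired-end reads (GRCm38.p6) and featureCounts with an Ensembl annotation to count fragments per gene, and deposited these raw counts. The strand setting and the Ensembl release are not given in the sources used here, and 0 columns were of other samples.

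The counts were filtered in edgeR 4.0.16 (R 4.3.3) by filterByExpr with a minimum count of 10, scaled by TMM, and compared between KO and control without pairing by the quasi-likelihood test with Benjamini-Hochberg adjustment over 14270 genes, with a limit of 0.05. The biological coefficient of variation was 9.35%. Log2 CPM used a prior count of 2, and the standard error is the log2 fold change over the square root of F. Gene positions and lengths are from GENCODE M21. Libraries were grouped by the genotype in their labels. A figure legend of the study counts fewer samples per group for this experiment than were deposited, and all 10 libraries were used here. Nothing ties equal replicate numbers to one animal or day, and whether libraries came from separate mice is not stated, so p-values measure the spread between these libraries.

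The genes named are the 10 lipid droplet genes, Fam20c, Plin1, genes of the lists that passed the limit, defining markers, and the 2 genes most correlated with each tested member. Slc2a1, Pnpla2, Lrg1, Cidea, Lpin3, Lipe and the hypoxia-induced genes called without control 4 and KO 1 were named after their values were seen. Members and lists were chosen with earlier results of these data known. Alternatives were DESeq2 1.42.0, limma voom (limma 3.58.1) with sample quality weights, other size factors and filters, a replicate block, an adipocyte marker covariate and libraries left out. The scripts were tested on simulated counts. No batch or date is in the labels, and protein sequences were not used here.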

Additional observations from a re-analysis of the deposited data

Results flagged for a closer look

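Within each group of 5 libraries, the gap of the highest or lowest library to its nearest neighbour was compared with the whole range, over 30 groups of values (the 9 tested lipid droplet genes, Plin1, Fam20c and 4 ratios between coat or fusion genes, in each genotype). Chance flags about 1 in 20 such groups, or 1.5 of 30, and 3 stood out. Control 4 was low for Bscl2, at 7.80 log2 CPM, while the other control libraries lay between 7.88 and 7.90. KO 1 was low for Fitm2, at 8.73 log2 CPM, below the 8.94 to 8.97 of the other KO libraries. KO 4 was low for Pnpla3, at 5.04 log2 CPM, below 5.33 to 5.42. Control 4 and KO 1 are also the libraries with the highest hypoxia-induced genes, and KO 4 is not.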

How the results depend on the processing

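Among the 8 uncalled genes the 95% interval was widest for Hilpda, at 0.98 on the log2 scale. It was narrower for others, such as -0.02 to 0.14 for Plin2 and -0.07 to 0.10 for Cidec. Changes within a gene's interval remain possible, and an uncalled gene is not shown to be unchanged. The number of lipid droplet genes called lower was 0 in every fit for which it was counted, and the number called higher was 1 except for 0 under the replicate block and 0 to 1 with a library left out. Plin5 kept its direction in all fits, with 0.28 and an adjusted p of 0.0636 under the replicate block and 0.29 (0.0680) with the adipocyte covariate. The replicate numbers do not pair the libraries: the correlations of same-numbered deviations were -0.17, 0.09, 0.26, -0.25 and 0.03, and 1 of 5 control libraries correlated best with its own number. Leaving out 1 library gave log2 fold changes of 0.05 to 0.07 for Plin2, 0.01 to 0.06 for Plin3, -0.081 to 0.038 for Plin4, 0.25 to 0.32 for Plin5, 0.00 to 0.03 for Cidec, -0.0048 to 0.034 for Bscl2, -0.00046 to 0.085 for Fitm2, 0.05 to 0.48 for Hilpda, -0.096 to 0.045 for Pnpla3 and -0.54 to -0.43 for Fam20c. Cidec turned to -0.0048 and Pnpla3 to 0.015 without control 4 and KO 1, and Pnpla3 to 0.0077 in limma voom. Numbers of list genes called, main then changed, were: droplet surface higher, 0, then 1 (DESeq2, voom, no filter, without both libraries; 0 to 1 leaving 1 out). Assembly and synthesis lower, 0, then 1 (DESeq2, without both; 0 to 1). Lipases higher, 0, then 1 (DESeq2, voom, without both; 0 to 1). Hypoxia-induced higher, 0, then 1 (voom) and 5 (without both; 0 to 3). Lipogenic lower, 1, then 0 (replicate block; 0 to 1) and higher, 0, then 1 (DESeq2, voom; 0 to 1). Oxidation higher, 1, then 3 (DESeq2) and 2 (voom, without both; 1 to 2). Adipocyte lower, 0, then 1 (without both; 0 to 1) and higher, 0, then 2 (DESeq2) and 1 (voom, without both; 0 to 1). Lipe is counted under both lipases and adipocyte markers. Beige higher, 1, then 3 (DESeq2), 4 (voom) and 2 (no filter, without both; 0 to 4). Leaving 1 out gave 11 to 12 endothelial, 3 to 5 progenitor and 0 to 1 pericyte markers lower. Over all genes, 265 lower and 44 higher became 359 and 125 (DESeq2), 347 and 111 (voom), 193 and 21 (replicate block), 199 and 19 (adipocyte covariate) and 353 and 145 (without both). With the longest transcript as length, control levels per kilobase were 983 for Plin2, 19.7 for Plin3, 37.2 for Plin5, 1777 for Cidec, 66.8 for Bscl2 and 31.0 for Pnpla3. The cause of these differences was not tested.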
